A study of Mus musculus with 12 samples.

Results

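Cd24a, Epcam, Cd9, Cd81, Cd151 and Bsg encode surface proteins against which antibodies are used to sort islet and other epithelial cells. These 6 genes were taken by name, but with earlier results of these data known. They come from the 31055 genes of the single-cell matrices and the 45808 genes of the bulk table, and all 6 were found in both. Single-cell RNA-seq was done on islet cells of 2-month-old Ppy-rtTA;TetO-Cre;R26-YFP mice of mixed background, in which doxycycline (DOX, 1 mg/ml in drinking water) labels Ppy-expressing γ-cells with YFP. The rtTA coding sequence replaces one Ppy allele in these mice, and islets of several mice were pooled in each of 2 experiments, so that a sum per experiment was 1 replicate. In each experiment a YFP+ and a YFP- fraction were loaded as separate libraries. Bulk RNA-seq was done on YFP+ cells of 2-month-old mice of mixed background, with 5 γ-cell libraries of DOX-treated Ppy-rtTA;TetO-Cre;R26-YFP mice and 3 δ-cell libraries of Sst-Cre;R26-YFP mice. The labels give DOX in the protocol of the δ-cell mice too, although Sst-Cre needs none, so that their treatment is uncertain. Each reporter marks cells in which the Ppy or Sst locus is or has been active, and cells with other hormones can carry it.

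CD24 is a small, heavily glycosylated protein held in the membrane by a lipid anchor, and it is used as a mark of many epithelial and blood cells. EpCAM is a homophilic adhesion molecule of epithelia and is widely used to separate them from stroma and blood. CD9, CD81 and CD151 are tetraspanins, which cross the membrane repeatedly and gather integrins and immunoglobulin-type partners into membrane microdomains. Basigin (CD147), the product of Bsg, is an immunoglobulin-type protein that brings monocarboxylate transporters to the surface. In the islet, α-, β-, δ- and γ-cells make glucagon, insulin, somatostatin and pancreatic polypeptide, and all 4 are epithelial.

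On GRCm38 the genes lie apart, with Cd24a at chr10:43578284-43584265, Bsg at chr10:79704491-79711969, Epcam at chr17:87635979-87651129, Cd81 at chr7:143052739-143067934 and Cd151 at chr7:141467392-141471473, all on the plus strand, and Cd9 at chr6:125460266-125494791 on the minus strand. All 6 are protein-coding. The stretches before the starts of Cd9, Cd81, Cd151 and Epcam are shown because the 3 tetraspanin genes were higher together in single Ppy+ cells while Epcam was not. They come from the RefSeq promoter table of GRCm38.p6, in which Cd24a and Bsg had no entry, and run 5′ to 3′ on the strand of the gene up to the first annotated exon. The Cd9 stretch is chr6:125494792-125495010 (minus strand), that of Cd81 is chr7:143052500-143052738, that of Cd151 is chr7:141467112-141467361 and that of Epcam is chr17:87635729-87635978 (all plus strand). Capitals mark a GC box (GGGCGG, or its reverse complement), complete or running over the end of the stretch.
Cd9: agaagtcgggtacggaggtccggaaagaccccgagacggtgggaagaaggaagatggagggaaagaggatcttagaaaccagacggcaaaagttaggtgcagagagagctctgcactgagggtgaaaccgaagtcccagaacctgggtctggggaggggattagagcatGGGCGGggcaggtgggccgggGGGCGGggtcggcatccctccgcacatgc
Cd81: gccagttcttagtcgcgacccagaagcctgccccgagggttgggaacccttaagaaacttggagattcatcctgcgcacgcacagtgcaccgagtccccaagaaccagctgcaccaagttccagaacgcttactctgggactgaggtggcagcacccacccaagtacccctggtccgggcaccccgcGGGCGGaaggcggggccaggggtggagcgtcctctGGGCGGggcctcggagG
Cd151: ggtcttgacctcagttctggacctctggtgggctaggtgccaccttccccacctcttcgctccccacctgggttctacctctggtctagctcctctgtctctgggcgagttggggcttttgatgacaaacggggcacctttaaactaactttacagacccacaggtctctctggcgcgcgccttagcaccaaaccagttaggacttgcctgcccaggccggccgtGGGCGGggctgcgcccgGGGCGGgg
Epcam: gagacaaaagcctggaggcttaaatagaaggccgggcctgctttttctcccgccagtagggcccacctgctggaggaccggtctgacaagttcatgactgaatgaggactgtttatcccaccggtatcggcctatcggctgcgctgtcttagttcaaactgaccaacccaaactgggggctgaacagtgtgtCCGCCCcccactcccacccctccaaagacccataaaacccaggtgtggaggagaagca

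Within the 250 bases before the RefSeq start, Cd9 held 2 GC boxes, Cd81 held 3, Cd151 held 2 and Epcam held 1. At least 1 was in 32.7% of the 32851 promoter windows of this length used for comparison. These windows, called all windows below, leave out 1 chromosome, which holds none of these genes. The GC content was 61.6% for Cd9, 65.6% for Cd81, 62.4% for Cd151 and 56.4% for Epcam, against a median of 52.4% over all windows, with 16, 16, 12 and 8 CpG dinucleotides against a median of 6. A further Cd151 window, at chr7:141468539-141468788 within the gene, held no GC box and 4 CpG dinucleotides. Other motifs were searched on both strands without regard to overlap. The TATA box TATAAA was in none of these windows and in 12.4% of all, the motif CCAAT in none and in 33.8% of all, and the E-box with the letters CACGTG in none and in 6.02% of all. These matches describe the sequence and were not tied to any measured factor.

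The 4 single-cell libraries held 5982 cells and between 10683494 and 18330975 UMIs each, with a median of 4237 to 8338 UMIs per cell. After removal of 120 doublets and of 1430 cells in 8 non-endocrine clusters, 4432 endocrine cells remained, and 4075 of them fell into 7 classes by their hormone transcripts. Monohormonal Ppy+ cells numbered 674 and 770 in experiments 1 and 2, Gcg+ cells 311 and 300, Ins2+ cells 427 and 89, and Sst+ cells 129 and 119. The bihormonal cells comprised 386 and 369 Ppy+Gcg+, 181 and 210 Ppy+Sst+, and 71 and 39 Ppy+Ins2+ cells. The 6 genes were kept out of the clustering, so that no class was defined by them. Barcodes found in more than 1 library numbered 19. The YFP+ libraries gave almost all cells with Ppy alone (673 of 674 and 763 of 770), and the Gcg+, Ins2+ and Sst+ cells from the YFP- libraries with 1 exception, so that differences between Ppy+ and these classes also compare libraries. The 7 hormone genes Ppy, Pyy, Gcg, Ins1, Ins2, Sst and Iapp took between 22.8% of the UMIs (Sst+, experiment 2) and 75% (Ins2+, experiment 1). Levels below are TMM-scaled UMI counts relative to the library total (CPM) in the 14 sums of 7 classes and 2 experiments, as mean ± SD with n = 2 experiments, and differences are log2 differences ± SE from edgeR's quasi-likelihood test over all genes, with Benjamini-Hochberg adjusted p-values that measure the spread between these pooled sums.

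Cd24a marked the Sst+ cells. Its level was 513 and 550 CPM in the Sst+ sums of experiments 1 and 2 (531 ± 26.1), and 395 and 338 CPM in the Ppy+Sst+ sums (366 ± 40.4). All other sums lay between 0.411 and 11.8 CPM, with 2 and 9 UMIs in the whole Ppy+ sums. The Sst+ sums and the Ppy+Sst+ sums overlapped with no other class. The Ppy+ minus Sst+ difference was -8.82 ± 0.26 (SE) on the log2 scale, the Sst+ cells being higher (95% interval -9.34 to -8.30, adjusted p = 3.52e-27). The Gcg+ minus Sst+ difference was -7.66 ± 0.25 (adjusted p = 3.14e-25) and the Ins2+ minus Sst+ difference was -7.10 ± 0.25 (adjusted p = 3.87e-24). The size of the Ppy+ to Sst+ difference rests on few UMIs in Ppy+ cells, and was -9.14 in experiment 1 alone and -7.79 in experiment 2 alone. Values for 1 experiment alone, here and below, are log2 ratios of CPM with a small constant added to both levels. At low levels the constant makes them smaller than the plain ratio, so that they are not on the scale of the fit.

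The order below the Sst+ cells was not settled. The mean was 7.15 ± 6.56 CPM in Ins2+, 2.64 ± 0.847 CPM in Gcg+ and 1.2 ± 1.12 CPM in Ppy+ cells, and the Gcg+ and Ins2+ sums overlapped. The Ppy+ minus Ins2+ difference of -1.72 ± 0.61 passed the test (adjusted p = 0.0224), but not without the experiment as a block (adjusted p = 0.0722), with the library as a block (-1.05, adjusted p = 0.24) or with raised hormone thresholds (-1.03, adjusted p = 0.175). To even out the depth, cells were also thinned to 1000 UMIs each before they were summed, in 10 random draws, and the difference was called in 1 of them. These draws were added after seeing the data. Transcripts of immune cells also differed between the classes. The 16 B/plasma markers summed to 714 and 816 CPM in the Ins2+ sums of experiments 1 and 2, where Cd24a was at 2.51 and 11.8 CPM. They summed to 464 and 533 CPM in the Gcg+ sums, with Cd24a at 2.04 and 3.24 CPM, and to 23.6 and 22.8 CPM in the Ppy+ sums. The 27 macrophage/myeloid markers summed to 137 and 456 CPM in Ins2+, 125 and 380 CPM in Gcg+ and 54.1 and 70.5 CPM in Ppy+ sums. The part of these cells in the result was not tested.

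**Figure D1:**
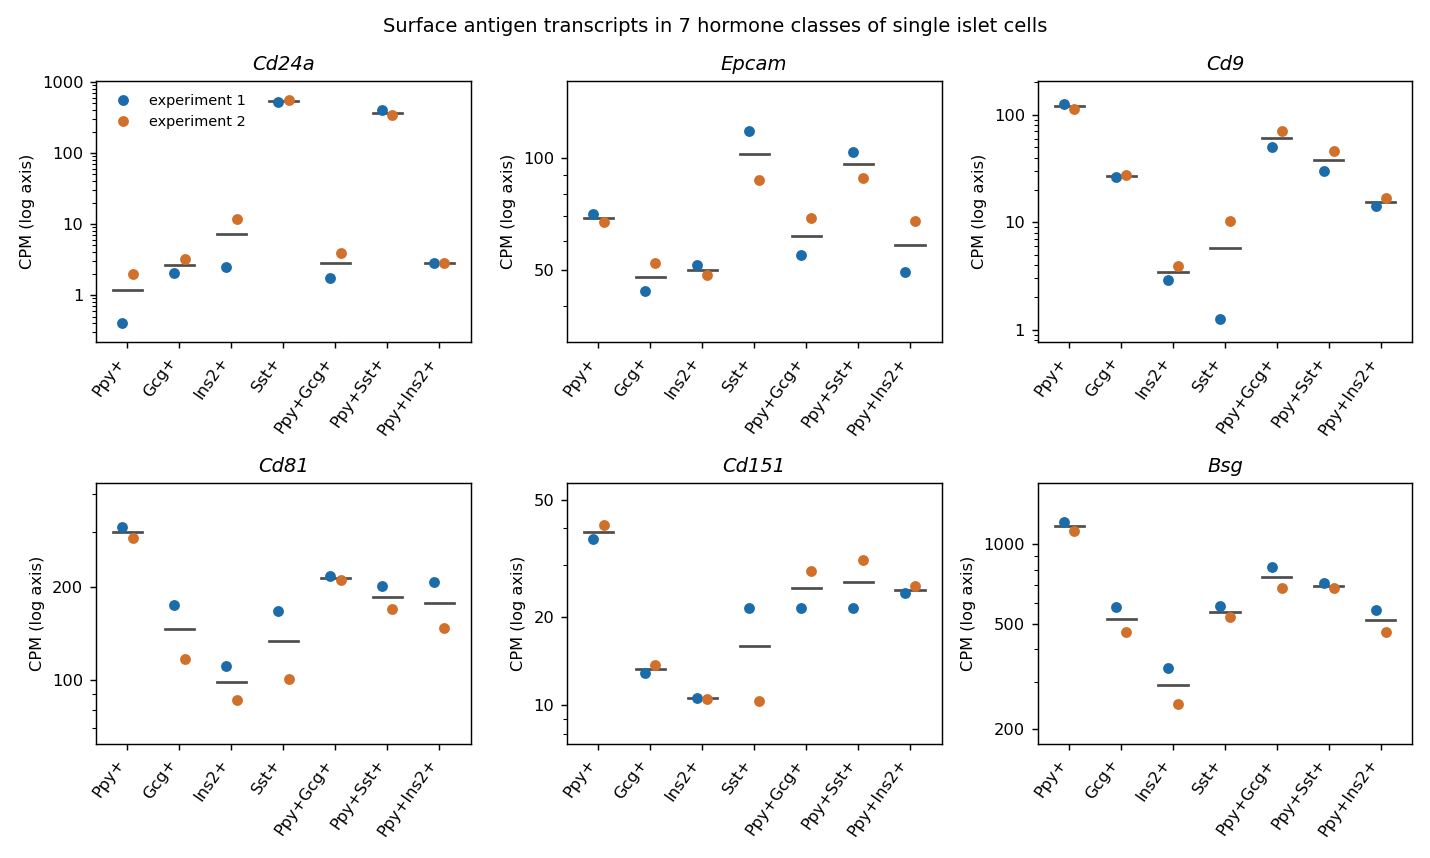
Transcript level of each gene in CPM (log axis) in 7 hormone classes, with 1 point per experiment and a bar at the mean of the 2 experiments. Cd24a is high in the Sst+ and Ppy+Sst+ sums (338 to 550 CPM) and at or below 11.8 CPM in all others, while Cd9, Cd81, Cd151 and Bsg have their highest points in Ppy+ cells.

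Cell by cell, Cd24a split the classes in the same way. After each cell was thinned once to 1000 UMIs, 49.6% of Sst+ cells (64 of 129, exact 95% interval 40.7 to 58.5%) and 59.7% (71 of 119, 50.3 to 68.6%) held a Cd24a UMI in experiments 1 and 2, and without thinning 93% and 85.7% did. In Ppy+Sst+ cells the shares were 45.3% and 42.9%. Among Ppy+ cells the share was 0 of 674, where the exact interval allows up to 0.546%, and 2 of 770 (0.26%). In stromal-like cells, which as a rule lack CD24, it was 0 of 78 (up to 4.62%) and 1 of 191 (0.524%, up to 2.88%) at a median of 3154 and 2284 UMIs per cell, against 7643 and 5887 in Ppy+ cells, so that the share in Ppy+ cells was not above that background. These intervals cover counting error only.

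Epcam had a flatter profile and, unlike the tetraspanin genes, was not highest in Ppy+ cells. Its level was 118 and 87.6 CPM in Sst+ cells (103 ± 21.1), 70.7 and 67.6 CPM in Ppy+ cells (69.2 ± 2.18), 51.6 and 48.5 CPM in Ins2+ cells (50 ± 2.18) and 43.9 and 52.2 CPM in Gcg+ cells (48 ± 5.86). The Sst+ sums did not overlap with any other monohormonal class, while the Ins2+ and Gcg+ sums overlapped. Sst+ cells stood above Gcg+ cells (Gcg+ minus Sst+ -1.12 ± 0.18, adjusted p = 1.02e-05) and above Ins2+ cells (Ins2+ minus Sst+ -1.03 ± 0.19, adjusted p = 5.72e-05). In thinned cells the first was called in 5 and the second in 0 of 10 draws (median -0.96 and -0.87), and in experiment 2 alone the first was -0.74. Between Ppy+ and Sst+ cells the difference of -0.59 ± 0.17 had an adjusted p of 0.0131 but stayed under the fold threshold of 0.721 on the log2 scale, and so did the Ppy+ minus Gcg+ difference of 0.53 ± 0.14 (adjusted p = 0.00591) and the Ppy+ minus Ins2+ difference of 0.44 ± 0.15 (adjusted p = 0.0196). An Epcam UMI was found in 12.4% and 12.6% of thinned Sst+ cells and in 5.79% and 5.06% of Ppy+ cells, against 0 of 70 (up to 5.13%) and 1 of 181 (up to 3.04%) endothelial-like cells at a median of 1979.5 and 1661 UMIs. T/NK-like cells had 0 of 26 (up to 13.2%) and 4 of 55 (7.27%, 2.02 to 17.6%) at a median of 8698.5 and 6321 UMIs, and these intervals overlapped with those of the Sst+ cells (7.26 to 19.4% and 7.23 to 19.9%) and of the Ppy+ cells (4.15 to 7.83% and 3.63 to 6.86%). The share in Ppy+ cells was thus not above that of the few T/NK-like cells. Other clusters had narrower intervals. In experiment 2 the upper limits were 1.91% in stromal-like (0 of 191) and 3.13% in B/plasma-like cells (0 of 116), below the Ppy+ interval. In experiment 1 they were 4.62% (0 of 78) and 5.78% (0 of 62), within it. Acinar-like cells, 23 and 8 in number, had limits of 14.8% and 52.7%.

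Among the 3 tetraspanin genes, Cd9 had the largest differences of Ppy+ cells to the other monohormonal classes in these sums. Ppy+ cells had 126 and 113 CPM (119 ± 8.79), Gcg+ cells 26.5 and 27.7 CPM (27.1 ± 0.827), Sst+ cells 1.26 and 10.3 CPM (5.79 ± 6.4, from 1 and 6 UMIs) and Ins2+ cells 2.9 and 3.93 CPM (3.41 ± 0.731). The Ppy+ sums were the highest and the Gcg+ sums followed without overlap, while the Sst+ and Ins2+ sums overlapped. The Ppy+ minus Ins2+ difference was 5.24 ± 0.25 (adjusted p = 2.58e-20), the Ppy+ minus Sst+ difference was 4.54 ± 0.35 (adjusted p = 1.79e-13) and the Ppy+ minus Gcg+ difference was 2.14 ± 0.16 (adjusted p = 4.44e-14). The value against Sst+ cells depended on the experiment, at 6.16 in experiment 1 alone and 3.39 in experiment 2 alone. Gcg+ cells were above Ins2+ cells by 3.09 ± 0.33 (adjusted p = 4.18e-10) and above Sst+ cells by 2.40 ± 0.47 (adjusted p = 0.000198), and in thinned cells these were called in 6 and 5 of 10 draws. The latter difference was 3.94 in experiment 1 alone and 1.38 in experiment 2 alone. In cells thinned once the share with a Cd9 UMI was 10.5% and 8.57% in Ppy+ and 3.22% and 4.33% in Gcg+ cells. It was 0 of 129 (up to 2.82%) and 2.52% in Sst+ cells, and 0 of 427 (up to 0.86%) and 0 of 89 (up to 4.06%) in Ins2+ cells.

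Cd81 and Cd151 were also highest in Ppy+ cells, with smaller distances between the classes. Cd81, which encodes a widely expressed tetraspanin, had 313 and 287 CPM in Ppy+ (300 ± 18.7), 175 and 117 CPM in Gcg+ (146 ± 40.7), 167 and 101 CPM in Sst+ (134 ± 46.3) and 111 and 86.5 CPM in Ins2+ cells (98.9 ± 17.5). It was higher in Ppy+ cells than in Gcg+ cells by 1.06 ± 0.13 (adjusted p = 1.91e-08), than in Sst+ cells by 1.16 ± 0.15 (adjusted p = 2.21e-07) and than in Ins2+ cells by 1.60 ± 0.14 (adjusted p = 2.34e-12). The other 3 classes did not differ by a called amount, and the Gcg+ sums overlapped with the Sst+ sums and these with the Ins2+ sums. Cd151, which binds laminin-receptor integrins, had 36.8 and 41.1 CPM in Ppy+ cells (38.9 ± 3.05), 21.5 and 10.3 CPM in Sst+ (15.9 ± 7.9), 12.9 and 13.7 CPM in Gcg+ (13.3 ± 0.527) and 10.6 and 10.5 CPM in Ins2+ cells (10.6 ± 0.0994). Ppy+ cells were above Gcg+ cells by 1.55 ± 0.19 (adjusted p = 2.27e-08), Ins2+ cells by 1.81 ± 0.21 (adjusted p = 2.38e-09) and Sst+ cells by 1.21 ± 0.29 (adjusted p = 0.00237). In thinned cells Cd151 passed the filter on low counts in 4 of 10 draws, and was called against Gcg+ cells in 4, against Ins2+ cells in 1 and against Sst+ cells in 0 of these. The Ppy+ minus Sst+ difference of Cd151 was 0.76 in experiment 1 alone and 1.94 in experiment 2 alone.

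Bsg followed the tetraspanin genes. Its level was 1210 and 1120 CPM in Ppy+ cells (1170 ± 61.7), 583 and 528 CPM in Sst+ (555 ± 38.9), 578 and 466 CPM in Gcg+ (522 ± 79.5) and 339 and 248 CPM in Ins2+ cells (293 ± 64.3). Ppy+ sums were highest and Ins2+ sums lowest without overlap, and the Sst+ and Gcg+ sums between them overlapped. The Ppy+ minus Ins2+ difference was 1.98 ± 0.13 (adjusted p = 1.53e-16), the Ppy+ minus Gcg+ difference was 1.17 ± 0.12 (adjusted p = 2.91e-10) and the Ppy+ minus Sst+ difference was 1.08 ± 0.12 (adjusted p = 1.11e-08). Ins2+ cells were below Gcg+ cells (Gcg+ minus Ins2+ 0.82 ± 0.12, adjusted p = 1.26e-06) and below Sst+ cells (Ins2+ minus Sst+ -0.91 ± 0.13, adjusted p = 1.1e-06), and in thinned cells these were called in 8 and 8 of 10 draws. A Bsg UMI was found in 58.6% and 58.4% of Ppy+ cells thinned once in 51.2% and 56.3% of Sst+ cells, in 49.8% and 42.3% of Gcg+ cells and in 14.8% and 18% of Ins2+ cells, whose UMIs were mostly hormone transcripts. The intervals of Sst+ cells (42.2 to 60.1% and 46.9 to 65.4%) overlapped with those of Ppy+ cells (54.8 to 62.4% and 54.9 to 61.9%). No cluster lacked Bsg, and the share was 3.23% and 16.4% in B/plasma-like cells, at a median of 10860.5 and 6518.5 UMIs, so that the Ins2+ share in experiment 2 was not above theirs. When cells were thinned to 500 UMIs of other genes instead, an alternative chosen after seeing the data, the shares were 66% and 58.7% in Ppy+, 44.2% and 42% in Sst+, 37.6% and 37% in Gcg+ and 27.4% and 31.5% in Ins2+ cells.

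Read by comparison, calls needed an adjusted p up to 0.05 and a log2 difference above 0.721. Between Ppy+ and Gcg+ cells 4 of the 6 genes were called, against 12.7% of the 10326 genes tested. Against Ins2+ cells 5 were called, beside 26.7% of all genes, and against Sst+ cells 5 were called, beside 12% of all genes. Cd9, Cd81, Cd151 and Bsg were the ones higher in Ppy+ cells each time, and these comparisons share the Ppy+ sums. Among the remaining pairs, 2 genes were called between Gcg+ and Ins2+ cells (22.9% of all genes), 3 between Gcg+ and Sst+ cells (12.1%) and 3 between Ins2+ and Sst+ cells (15.9%).

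**Figure D2:**
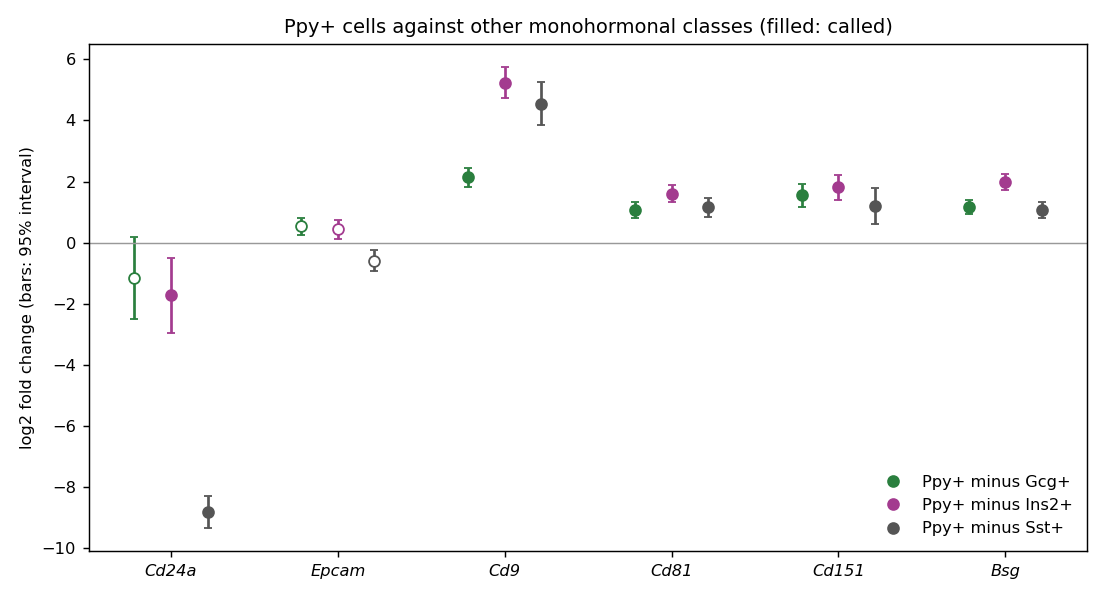
Log2 difference of monohormonal Ppy+ cells to Gcg+, Ins2+ and Sst+ cells for each gene, with 95% intervals and filled points where the gene was called. Cd9 ranges from 2.14 to 5.24, Cd81, Cd151 and Bsg lie between 1.06 and 1.98, Epcam stays within 0.59 of 0, and Cd24a is at -8.82 against Sst+ cells.

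These values also depended on how the library of origin was treated. When sums were made per library and the library was a block, the bihormonal cells found in both fractions alone tied Ppy+ cells to the other classes, and the differences of Cd9, Cd81, Cd151 and Bsg shrank, while those of Epcam to Gcg+ (0.60) and Ins2+ cells (0.51) did not. Against Gcg+ cells the fit then gave 0.70 for Cd9 (adjusted p = 0.37), 0.68 for Cd151 (adjusted p = 0.411) and 0.70 for Bsg (adjusted p = 0.00157), all no longer called, and 0.75 for Cd81 (adjusted p = 0.000795), still called. Against Sst+ cells Cd151 (0.35, adjusted p = 0.79) and Bsg (0.59, adjusted p = 0.0125) were no longer called, while Cd24a (-8.11), Cd9 (3.08) and Cd81 (0.85) were. Against Ins2+ cells Cd9 (3.80), Cd81 (1.35), Cd151 (1.08) and Bsg (1.51) stayed called. Such a block takes the bihormonal cells of the 2 fractions to be alike. They were not alike for all genes, since Cd9 in Ppy+Sst+ cells was at 94.3 and 114 CPM in YFP+ and 8.44 and 14 CPM in YFP- cells, without hormone genes. The smaller differences can thus hold differences between cells as well as between libraries. Cell class and library cannot be told apart here.

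Bihormonal cells stood between the monohormonal classes of their hormones for several of the genes. Of the Ppy+Ins2+ cells, 70 of 71 and 35 of 39 lay in Ins2 clusters, with medians of 97.5 and 82 Ppy UMIs and 4664 and 2260 Ins2 UMIs. The study left out bihormonal cells that lay in clusters of the other hormone. Cd9 was lower than in monohormonal Ppy+ cells in all 3 bihormonal classes, by 1.00 ± 0.13 on the log2 scale in Ppy+Gcg+ cells (60.3 ± 13.8 CPM, adjusted p = 8.61e-07, although called in 6 of 10 draws of thinned cells), by 1.64 ± 0.17 in Ppy+Sst+ cells (38.2 ± 11.4 CPM, adjusted p = 1.95e-09) and by 2.96 ± 0.30 in Ppy+Ins2+ cells (15.6 ± 1.95 CPM, adjusted p = 7.5e-10). Bsg was lower by 0.75 ± 0.12 in Ppy+Sst+ cells (695 ± 22.4 CPM, adjusted p = 1.08e-05) and by 1.19 ± 0.13 in Ppy+Ins2+ cells (514 ± 67.8 CPM, adjusted p = 4.42e-09). The Ppy+Sst+ call of Bsg was lost under 6 alternatives, and within the YFP+ libraries alone its value was -0.65. Cd81 was lower by 0.75 ± 0.16 in Ppy+Ins2+ cells (adjusted p = 0.000907), a call that 7 alternatives ended. One of them was leaving out the experiment as a block (adjusted p = 0.107). Cd24a was higher by 8.29 ± 0.26 in Ppy+Sst+ cells (adjusted p = 5.76e-26). No difference of Epcam or Cd151 was called. Some differences passed on the adjusted p but stayed under the fold threshold of 0.721 on the log2 scale. In Ppy+Gcg+ cells these were Bsg (-0.64, adjusted p = 0.000209), Cd151 (-0.65, adjusted p = 0.00633) and Cd81 (-0.48, adjusted p = 0.0114), all lower. In Ppy+Sst+ cells Cd81 was lower (-0.7, adjusted p = 0.000185) and Epcam higher (0.47, adjusted p = 0.0301) in this way. In all, 1 of the 6 genes was called in Ppy+Gcg+ cells (2.85% of all genes), 3 in Ppy+Sst+ cells (8.08%) and 3 in Ppy+Ins2+ cells (6.93%), and the 3 comparisons share the Ppy+ sums.

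Ppy+Sst+ cells occurred in both fractions, and some of the genes differed between them. With the 7 hormone genes left out of the totals, Cd9 was at 94.3 and 114 CPM in YFP+ cells (101 and 151 cells) and at 8.44 and 14 CPM in YFP- cells (80 and 59 cells, 2 UMIs each). Cd24a was at 692 and 590 CPM in YFP+ cells and at 988 and 1130 CPM in YFP- cells. Bsg was at 1540 and 1480 CPM in YFP+ and at 1300 and 1030 CPM in YFP- cells. The fractions did not overlap for these 3 genes, nor, by a small distance, for Cd151 (44.5 and 69.4 CPM in YFP+, 42.2 and 41.9 CPM in YFP- cells). They overlapped for Epcam (220 and 180 against 198 and 189 CPM) and Cd81 (403 and 378 against 418 and 224 CPM). With 2 experiments an exact two-sided permutation test cannot go below p = 0.33. In Ppy+Gcg+ cells Cd9 was at 93.4 and 140 CPM in the YFP+ fraction and at 68.8 and 51 CPM in the YFP- fraction.

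By position among the clusters, Ppy+Sst+ cells lying in Ppy clusters (14 and 60 cells) had 411 and 407 CPM of Cd24a, and those in Sst clusters (163 and 143 cells) had 875 and 891 CPM, again without hormone genes. A Cd24a UMI was found in 28.6% and 30% of the former and in 47.9% and 50.3% of the latter after thinning. Cd24a was thus present in Ppy+Sst+ cells of both positions, at a higher level in those within Sst clusters. The former had median totals of 7089.5 and 5398.5 UMIs and the latter 4065 and 3438, and cells with 2 hormones can also be doublets that the caller missed, whose part was not tested.

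**Figure D3:**
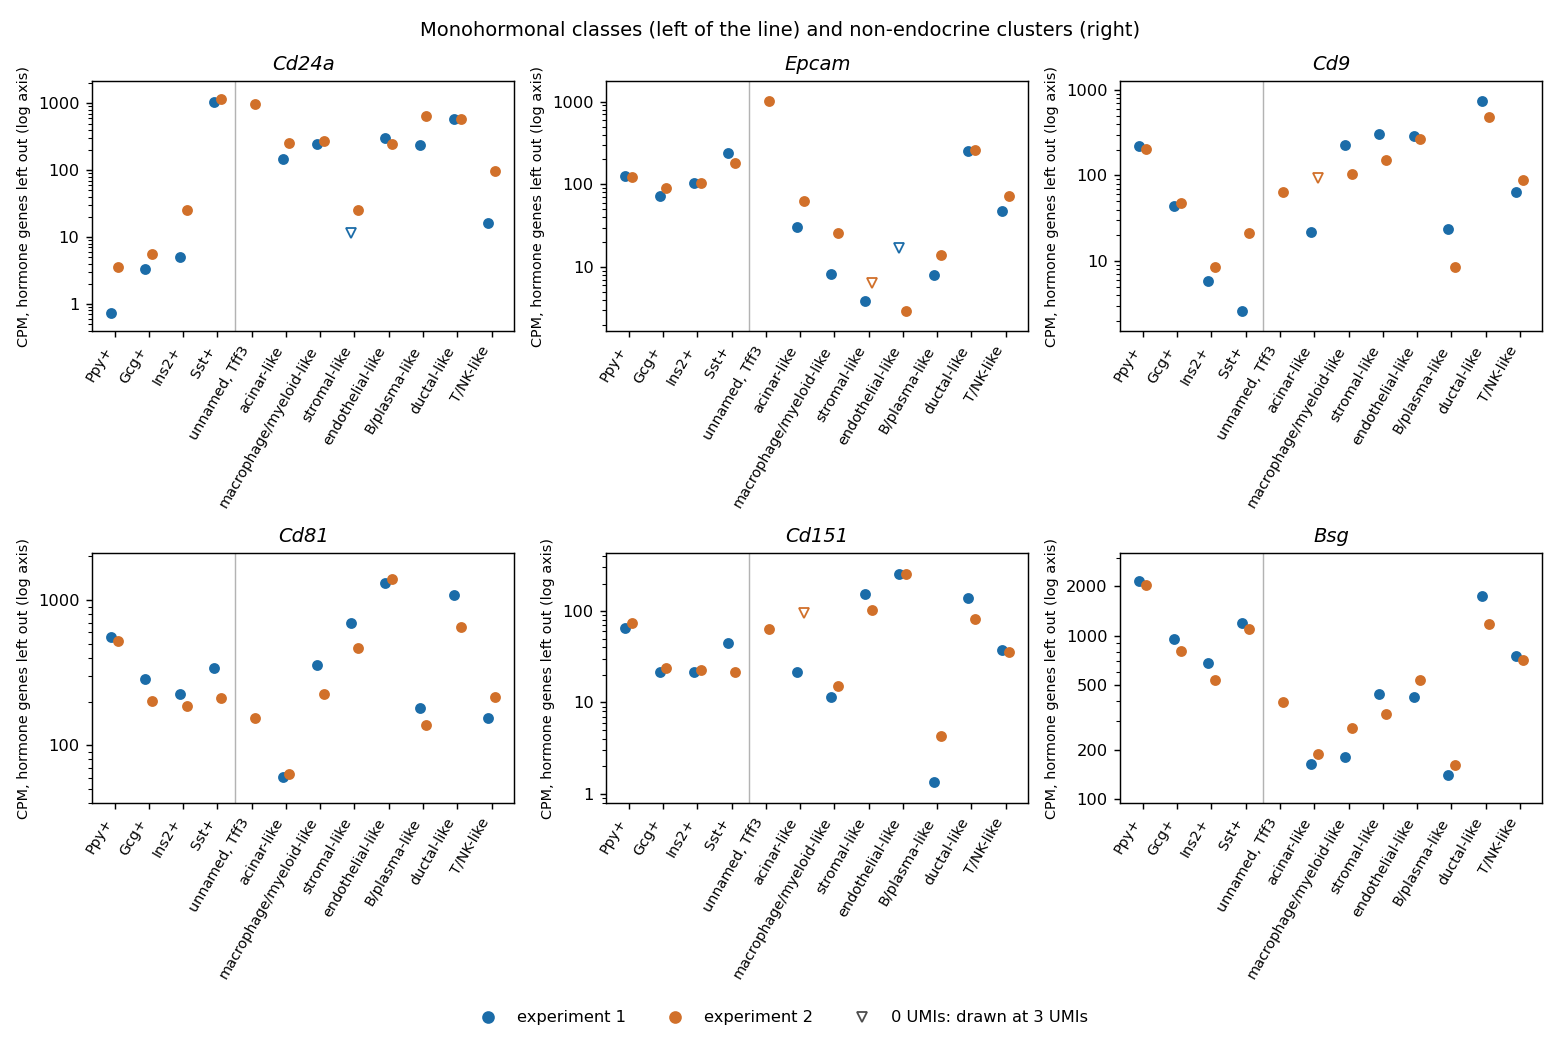
Level of each gene, in CPM with the hormone genes left out (log axis), in the 4 monohormonal classes and in 8 non-endocrine clusters, with 1 point per experiment and an open triangle at the limit of 3 UMIs where no UMI was found. Cd24a is above 100 CPM in most non-endocrine clusters as well as in Sst+ cells, and Epcam is near or at 0 in endothelial-like and stromal-like cells.

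The non-endocrine clusters show how far each antigen transcript was shared with other cells of the dissociated islets. They held 458 macrophage/myeloid-like, 269 stromal-like, 251 endothelial-like, 178 B/plasma-like, 130 ductal-like, 81 T/NK-like and 31 acinar-like cells, and 32 cells of an unnamed cluster led by Tff3 and Fcgbp, found in experiment 2 only. Cells were clustered on many genes, and no test was made between clusters. Levels here are CPM with the hormone genes left out.

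Cd24a, at 1060 and 1150 CPM in Sst+ cells, was also at 980 CPM in the Tff3 cluster, 587 and 580 CPM in ductal-like, 239 and 639 CPM in B/plasma-like, 243 and 276 CPM in macrophage/myeloid-like, 305 and 248 CPM in endothelial-like and 147 and 252 CPM in acinar-like cells. Its high level thus set Sst+ cells apart among the endocrine classes but not among all cells. Epcam was highest in the Tff3 cluster (1020 CPM) and in ductal-like cells (254 and 259 CPM), against 0 and 2.91 CPM in endothelial-like and 3.91 and 0 CPM in stromal-like cells. Macrophage/myeloid-like and B/plasma-like cells had between 7.96 and 26.1 CPM, T/NK-like cells 48.2 and 71.9 CPM and acinar-like cells 30.4 and 63 CPM, against 126 and 123 CPM in Ppy+ cells of the YFP+ libraries.

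The tetraspanin genes, which were found in all endocrine classes, were also found in other cells, in part at higher levels than in Ppy+ cells. Cd9 was at 737 and 489 CPM in ductal-like, 309 and 153 CPM in stromal-like and 288 and 268 CPM in endothelial-like cells, against 223 and 206 CPM in Ppy+ cells. Cd81 was at 1310 and 1390 CPM and Cd151 at 254 and 256 CPM in endothelial-like cells, above every endocrine class. For Bsg the order depended on the measure. Its 2150 and 2040 CPM in Ppy+ cells were above all clusters, of which the ductal-like cells (1740 and 1180 CPM) and the T/NK-like cells (750 and 709 CPM) came next. The hormone genes left out of these totals took 52.5% and 53.2% of the UMIs of Ppy+ cells. In cells thinned once to 1000 UMIs of all genes, 80.7% and 67.1% of ductal-like cells held a Bsg UMI (68.1 to 90% and 55.1 to 77.7%). In Ppy+ cells 58.6% and 58.4% did, so that the share was not highest there. The intervals of the 2 overlapped in experiment 2.

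Bulk libraries held 14633838 to 31784878 counted reads in γ-cells and 7641916 to 11773598 in δ-cells. The hormones followed the labels, with Ppy at a mean of 108000 CPM in γ- and 11800 CPM in δ-cells and Sst at 9660 and 76600 CPM. The γ-cell libraries also held Gcg (70000 against 3060 CPM) and Ins2 (11600 against 1320 CPM). The 2 cell types differ as well in genotype, sequencing instrument and read layout, since γ-cells were read in pairs and δ-cells from a single end, and these cannot be told apart from the cell type. The same holds for DOX, which the γ-cell mice received, if the δ-cell mice were not given it. In such samples fewer cells of a type and less RNA per cell cannot be told apart either. Of the 6 genes, 4 were called (adjusted p up to 0.05, log2 difference of 1 or more), while 35% of the 17926 genes tested were called.

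Cd24a was lower in γ-cells. Its level was 64.2, 59.5, 72, 64.1 and 84.4 CPM in γ-cell libraries and 490, 642 and 496 CPM in δ-cell libraries. The groups did not overlap, and the γ minus δ difference was -2.98 ± 0.14 (adjusted p = 8.24e-08), 7.89-fold. Transcripts of other cells differed between the groups as well. The 19 acinar markers were all lower in γ-cells, at a summed 2860 to 17200 CPM against 26800 to 113000 CPM in δ-cells. The 18 ductal markers summed to 1680 to 2000 against 2520 to 4050 CPM and the 16 B/plasma markers to 29 to 997 against 360 to 1400 CPM, whereas the 19 stromal markers summed to 1190 to 5830 against 120 to 1340 CPM. The part of these cells in the 6 results was not tested.

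Epcam went the opposite way. It was at 451, 508, 463, 472 and 469 CPM in γ-cell libraries and at 52, 58.9 and 60.6 CPM in δ-cell libraries. The groups stood far apart, with a γ minus δ difference of 3.05 ± 0.12 (adjusted p = 2.47e-08), 8.27-fold.

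**Figure D4:**
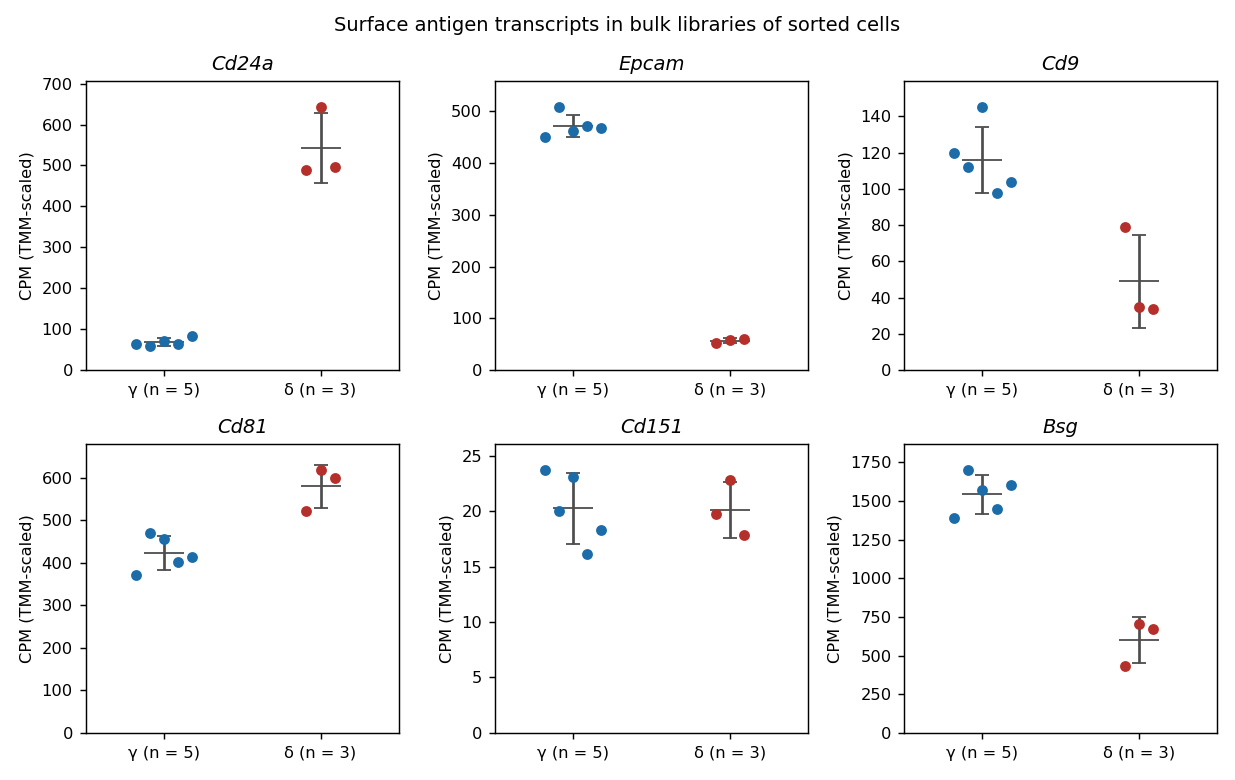
Level of each gene in CPM in 5 γ-cell and 3 δ-cell bulk libraries (linear axis from 0), with the mean and SD. Cd24a is higher in δ-cells, Epcam, Cd9 and Bsg are higher in γ-cells, Cd81 is slightly higher in δ-cells, and the Cd151 points overlap.

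Bsg and Cd9 were higher in γ-cells. Bsg was at 1390, 1700, 1570, 1450 and 1600 CPM in γ-cell libraries and at 432, 704 and 671 CPM in δ-cell libraries, without overlap (1.36 ± 0.18, adjusted p = 0.000117). Cd9 was at 120, 112, 145, 98 and 104 CPM in γ-cell and at 78.8, 34.7 and 34 CPM in δ-cell libraries. The groups did not overlap, and the difference of 1.25 ± 0.28 (adjusted p = 0.00331) was 1.77 without δ-cell replicate 1, the highest of the δ-cell libraries. With upper-quartile normalization it was 0.93 and under the threshold.

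Cd81 and Cd151 were not called. Cd81 was at 372, 471, 456, 402 and 414 CPM in γ-cell and at 522, 618 and 599 CPM in δ-cell libraries, lower in every γ-cell library by a difference of -0.45 ± 0.12 (adjusted p = 0.00878). Cd151 was at 23.7, 20, 23.1, 16.1 and 18.3 CPM in γ-cell and at 19.7, 22.8 and 17.8 CPM in δ-cell libraries. The groups overlapped, and the difference was 0.01 with a 95% interval of -0.37 to 0.39 (adjusted p = 0.963).

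Per kilobase of exon, which allows genes to be compared, Bsg had the highest level of the 6 in γ-cells, at 851 CPM per kb, followed by Epcam (215), Cd81 (147), Cd9 (56.7), Cd24a (26.7) and Cd151 (7.38). In δ-cells Bsg was also first at 332 CPM per kb, with Cd24a (210) and Cd81 (201) next and Epcam (26), Cd9 (24) and Cd151 (7.33) below. Libraries did not mark the strand, and antisense genes share 10.7% of the exon bases of Cd9 (Gm26728), 7.04% of those of Cd151 (Gm10575) and 3.61% of those of Cd81 (R74862). Reads in those bases cannot be told apart from reads of the antisense partner. Copies elsewhere in the genome, with at most 1 mismatch, existed for 18 of 220 windows of 100 bases in Cd24a (8.18%) and for 5 of 113 in Cd9 (4.42%), and for none in the other 4 genes, so that the counts of Cd24a and Cd9 carry this uncertainty.

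**Figure D5:**
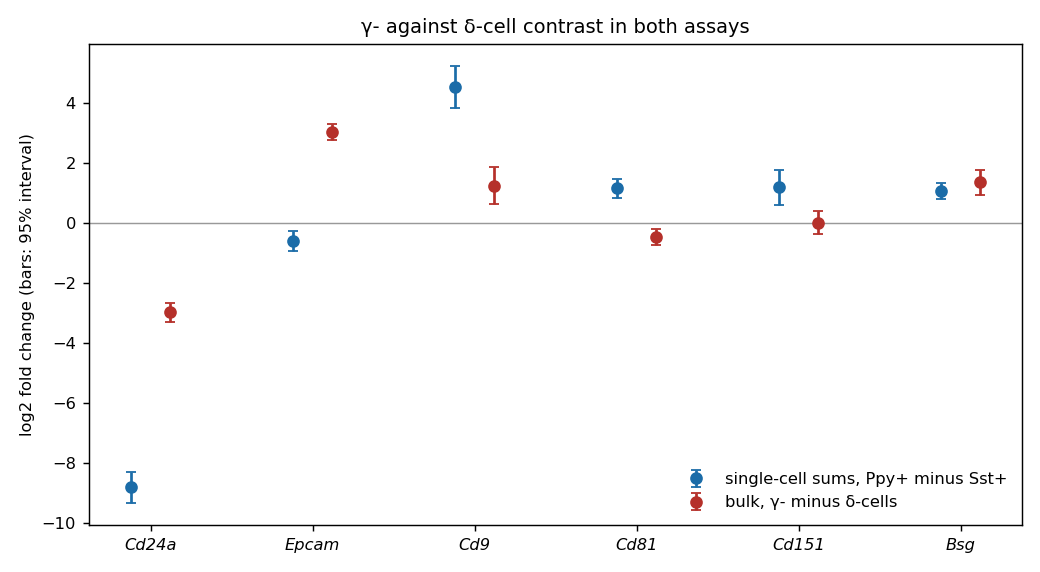
Log2 difference of γ- to δ-cells for each gene in single-cell sums (Ppy+ minus Sst+) and in bulk libraries, with 95% intervals. Cd24a is negative and Cd9 and Bsg are positive in both, while Epcam (-0.59 and 3.05) and Cd81 (1.16 and -0.45) have opposite signs.

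Side by side, the γ to δ differences had the same sign in both assays for Cd24a (-8.82 in single-cell sums and -2.98 in bulk), Cd9 (4.54 and 1.25) and Bsg (1.08 and 1.36). For Epcam (-0.59 and 3.05) and Cd81 (1.16 and -0.45) the signs were opposite. For Cd151 the single-cell difference was 1.21 and the bulk difference 0.01. The assays differ in the part of the transcript that is read and in the hormones of the sorted cells. The mice that gave the δ-cells also differ in genotype between the assays. The difference between the assays was not tested.

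Among the 23 other tetraspanins listed, 15 were tested in single-cell sums, and 7 were higher and none lower in Ppy+ than in Gcg+ cells, with a median difference of 0.75 against -0.02 over all genes. Against Ins2+ and against Sst+ cells 3 were higher and 3 lower. Over all genes tested, 12.7% were called against Gcg+, 26.7% against Ins2+ and 12% against Sst+ cells. The counts of this list and of the lists below stand beside these shares. Tspan8, a tetraspanin of epithelia, was called in 8 of 9 comparisons and had 495 and 436 CPM in Ppy+, 191 and 125 CPM in Sst+, 19.3 and 32.8 CPM in Ins2+ and 17 and 9.72 CPM in Gcg+ cells. It was thus highest in Ppy+ cells, as were Cd9, Cd81 and Cd151. In bulk Tspan8 was not called, like Cd81 and Cd151, with a γ minus δ difference of 0.43 (467 against 347 CPM, adjusted p = 0.0267). Tspan12, a co-receptor component of Norrin signalling, had another order, with 56.9 and 80.8 CPM in Sst+, 21.2 and 32.7 CPM in Ppy+, 24.8 and 25.9 CPM in Gcg+ and 0.193 and 2.62 CPM in Ins2+ cells. In bulk, 5 of 23 were higher and 2 lower in γ-cells, beside 35% of all genes called in either direction.

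Of the tetraspanin partners, 10 of 16 were tested in single cells, and 5 were higher and 1 lower in Ppy+ than in Gcg+ cells, 1 higher and 3 lower than in Ins2+ cells, and 1 higher and 1 lower than in Sst+ cells. The integrin subunit gene Itgav had its highest level in Ins2+ cells, at 57.6 and 47.2 CPM, against 8.84 and 10.8 CPM in Ppy+ cells. Itgb8 was at 11 and 14.4 CPM in Ins2+, 15.2 and 8.59 CPM in Sst+, 3.9 and 7.07 CPM in Ppy+ and 0.34 and 1.08 CPM in Gcg+ cells. In the single-cell sums these 2 integrin genes were thus not highest where the tetraspanin genes were. Itgb1 of the same list had another order. It was at 60.2 and 61 CPM in Ppy+, 56.9 and 43 CPM in Sst+, 32 and 39.6 CPM in Gcg+ and 34.2 and 34.1 CPM in Ins2+ cells. It was called higher in Ppy+ cells against Gcg+ and Ins2+ cells but not against Sst+ cells. In bulk 6 of 16 partners were higher and 2 lower in γ-cells, beside 35% of all genes called. The higher ones were Itgb1 (2.08), Itga3 (1.54), Itga6 (1.64), Itgav (2.51), Itgb5 (3.09) and Igsf8 (2.61). The lower ones were Itga4 (-2.13) and Itgb8 (-1.15).

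Of the Epcam relatives and junction partners, 7 of 9 were tested, and against Sst+ cells 1 was higher and 3 were lower in Ppy+ cells (median -0.45 against 0.02 over all genes). Cdh1, which encodes E-cadherin, was at 79.6 and 75.6 CPM in Sst+, 77.8 and 86.5 CPM in Ins2+, 43.6 and 48.8 CPM in Ppy+ and 22.1 and 27.7 CPM in Gcg+ cells. Cd44, a hyaluronan receptor, came close to Cd24a in its pattern, with 56.9 and 67 CPM in Sst+ and 55.5 and 48.2 CPM in Ppy+Sst+ cells against 0.617 and 0.663 CPM in Ppy+ cells, although Ins2+ cells had 16 and 19.7 CPM. In bulk it was likewise lower in γ-cells (28.6 against 142 CPM, -2.31 ± 0.13, adjusted p = 2.14e-07). Of the 9 genes, 2 were higher and 1 was lower there, beside 35% of all genes called.

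Of the basigin relatives and partner transporters, 7 of 10 were tested, and 0 were higher and 1 lower in Ppy+ than in Gcg+ cells, 1 higher and 4 lower than in Ins2+ cells, and 0 higher and 2 lower than in Sst+ cells. Slc16a7, the monocarboxylate transporter MCT2, was at 15.2 and 17.2 CPM in Sst+ and at 1.64 and 1.99 CPM in Ppy+ cells, without a UMI in the Ins2+ sums. Slc16a7 thus did not follow Bsg, which among the monohormonal classes was highest in Ppy+ cells. In bulk 3 of 10 were higher and 2 lower in γ-cells, beside 35% of all genes called. The higher ones, as Bsg was, were Slc16a1 (2), Slc16a8 (5.31, at 2.4 against 0.0643 CPM) and Slc7a5 (3.38). The lower ones were Slc16a7 (-2.49) and Cd44 (-2.31). Of 23 other antigens, 18 were tested, and in Ppy+ cells 7 were higher and 2 lower than in Gcg+ cells, 5 higher and 6 lower than in Ins2+ cells, and 3 higher and 4 lower than in Sst+ cells. Folr1, a folate receptor, was called in all 9 comparisons, but its level differed between experiments, at 514 and 67.6 CPM in Ppy+ and 110 and 0 CPM in Sst+ cells. In bulk 5 of the 22 tested were higher and 5 lower in γ-cells, beside 35% of all genes called.

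Among the 6 genes themselves, over the 14 sums centred within each experiment, Pearson's r was 0.93 between Cd81 and Cd151, 0.92 between Cd81 and Bsg, 0.85 between Cd9 and Cd81, 0.85 between Cd9 and Bsg, 0.82 between Cd151 and Bsg and 0.68 between Cd9 and Cd151, and it was 0.8 between Cd24a and Epcam and -0.39 between Cd24a and Cd9. Among 5926 genes the closest to Cd24a were Ptprz1 (0.987), Ly6h (0.984) and Efna5 (0.976), the last an ephrin-A ligand held at the membrane. Rgs9, Rgs2 and Lima1 were closest to Epcam (0.958, 0.943 and 0.932), and Junb, Sh3bgrl3 and Jun to Cd9 (0.948, 0.944 and 0.929). Junb and Jun are immediate early genes. Uchl1 and Snhg20 (0.942 and 0.939) came before Cd151 for Cd81, Folr1 (0.968) came before Cd81 for Cd151, and Pld3, Tmem106c and Ssbp2 (0.959, 0.952 and 0.927) were closest to Bsg. These values are descriptions over 14 sums that share 4 libraries and 2 experiments.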

How the data were processed

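The authors counted single-cell reads with Cell Ranger on an mm10 reference to which YFP and rtTA were joined, and the deposited matrices hold raw UMI counts of cells that already pass the minima of 500 genes, 1000 UMIs and 7% mitochondrial UMIs. For bulk, the deposited table holds raw read counts per gene, which the authors made with STAR 2.7.2b on GRCm38.p6 and HTSeq 0.9.1 from SMARTer and Nextera XT libraries. Its 6 columns of α- and β-cells come from another series and were not used.

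Doublets (2% per experiment) were called by a nearest-neighbour method written after DoubletFinder. Scrublet was not used. Cells were clustered with Seurat 5.3.0 at resolutions 0.1 and 0.8 with the 6 genes left out of the variable genes. Clusters with at least 3 of 10 leading genes on non-endocrine marker lists were removed. Hormone thresholds were density minima of log-normalized values (natural log): Ppy 3.11, Gcg 4.93, Ins2 6.19, Sst 3.21. Monohormonal cells had also to lie in a cluster of their hormone. Classes were thus rebuilt here and can differ from those of the study.

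UMI counts were summed per class and experiment. All 14 sums went into 1 fit with edgeR 4.0.16 (R 4.3.3), with TMM, filterByExpr, the experiment as a block and the quasi-likelihood test, in 9 comparisons. The experiment pairs the classes because both fractions of an experiment were sorted from the same pooled islets. Bulk counts were fitted in the same way without a block, for genes with a mean of at least 5 counts per library. P-values were adjusted over all genes tested. Shares have exact (Clopper-Pearson) 95% intervals, and the limit at 0 in the plot of non-endocrine clusters is 3 UMIs. The labels do not say whether bulk libraries came from separate animals, so that p-values there measure the spread between libraries. The tests were checked on simulated data. For Ppy+ minus Sst+ sums, 34.7% of 2-fold and 73.7% of 4-fold changes were called, and 3.74% of the calls were false. In bulk 8.33% of 2-fold changes, which lie at the threshold itself, and 75% of 4-fold changes were called, with 0% false. A gene that was not called can thus still differ.

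The 6 genes, the gene and marker lists and the comparisons were chosen with earlier results of these data known. Named besides the 6 genes are, for each, the 3 genes with the highest correlation over the 14 sums (mean of at least 10 CPM, without hormones and predicted genes), and from each list the 2 genes called in most comparisons, named once where lists share them. Itgb1, and the tetraspanin and basigin partners called in bulk, were named in addition, after seeing the data. Alternatives were DESeq2 1.42.0, other normalizations, filters, blocks, thresholds, class definitions, libraries and depths, and each experiment or bulk library left out. Repeated thinning in 10 draws was added after seeing the data. The study's own comparisons were not used.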

Additional observations from a re-analysis of the deposited data

Results flagged for a closer look

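For Epcam and Cd81 the γ to δ difference had opposite signs in the single-cell and the bulk data. Epcam was -0.59 on the log2 scale in Ppy+ minus Sst+ single-cell sums and 3.05 in bulk γ- minus δ-cells. Cd81 was 1.16 in single-cell sums and -0.45 in bulk. In every sum and library the γ-cell values lay on one side of the δ-cell values. The difference between the assays was not tested, and its cause was not tested. No library stood out for any of the 6 genes among the 5 γ-cell libraries by Dixon's test, and groups of 2 or 3 were not examined in that way.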

How the results depend on the processing

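In bulk the number of the 6 genes called and the number of all genes called stayed within 1.5 times under all 17 alternatives, with 5482 to 6256 genes and 4 of the 6 called when each library was left out. Of 102 values of the 6 genes, 1 lost its call (Cd9 with upper-quartile normalization, 0.93, adjusted p = 0.0204). Another scaling or filter moved the split of all calls, from 59.3% higher in γ-cells to 44.9% with upper-quartile normalization (median difference of all genes -0.36 in place of -0.06) and 50.1% without a filter (median -0.47). With the replicate number as a replicate block 5373 genes were called and the calls of the 6 genes did not change. Same-numbered libraries had correlations of -0.166, 0.0867 and -0.312, so the numbers were not taken to pair them.

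In single cells 99 of 122 counts of genes and 119 of 122 counts of the 6 genes stayed within 1.5 times. Without the experiment as a replicate block, 782 genes passed between Ppy+ and Gcg+ cells, and against Ppy+ cells 88 passed in Ppy+Gcg+, 455 in Ppy+Sst+ and 414 in Ppy+Ins2+ cells. With the library as a block, Ppy+ cells differed from Gcg+, Ins2+ and Sst+ cells in 335, 1385 and 443 genes, with 1 of the 6 called against Gcg+ and 3 against Sst+ cells. YFP+ libraries alone gave 537 genes for Ppy+Sst+ against Ppy+ cells, and YFP- libraries alone 1474 for Gcg+ against Ins2+ cells. In cells thinned once to 1000 UMIs, Ppy+ differed from Gcg+, Ins2+ and Sst+ cells in 328, 463 and 371 genes, Gcg+ from Ins2+ cells in 525, Gcg+ from Sst+ in 442 and Ins2+ from Sst+ in 338. The bihormonal classes, in the order above, gave 100, 293 and 142 genes. Fewer UMIs enter such sums by construction. Which of the 6 genes are called in thinned cells depends on the draw, so the thinning was repeated in 10 draws, an alternative added after seeing the data, where a gene counts as called if most of the draws that tested it called it. Bihormonal cells outside clusters of their other hormone gave 165 (Ppy+Gcg+) and 127 (Ppy+Sst+) genes. With a log2 threshold of 1, 1 of the 6 genes was called between Gcg+ and Ins2+ cells. DESeq2 gave 825 genes between Ppy+ and Gcg+ cells, 132 in Ppy+Gcg+ and 533 in Ppy+Sst+ cells. The cause was not tested where none is given. Of 894 values of the 6 genes, 32 lost and 5 gained a call. No called difference changed sign, while some that were not called did, among them Cd24a between Ppy+ and Gcg+ cells (-1.16, and 0.37 as the median of the 10 draws). With each experiment left out no test was possible, and 14 values moved by more than the spread. Low UMI counts limit Cd24a outside Sst+ classes and Cd9 in Sst+ and Ins2+ cells. Of 264 shares recomputed under the alternatives, 73 moved by more than the spread, among them 41 without thinning, where all 42 were higher, and 22 in cells thinned to 500 UMIs of other genes. A few cells change class with the linear algebra library that runs the clustering.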
